A study of Nicotiana tabacum with 36 samples.

Results

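The data described here are the RNA-seq libraries of shoot apex taken at dawn (ZT0) and 6 h after dawn (ZT6), chosen by their sample labels, which give 3 replicates at each time-point and so 6 of the 36 libraries of the series. The plants were tobacco (*Nicotiana tabacum*) of cultivar K326, a Virginia type, aged 56 days and kept in a photoperiod of 18 h light and 6 h dark. The labels name no transgene and no treatment beyond the light cycle for either group, so that the comparison is between times of day. The series also holds root and whole shoot, and every tissue was taken at 4 time-points, ZT0, ZT6, ZT12 and ZT18 (hours after dawn). Total RNA was made into random primed cDNA libraries, and single reads were assigned by the authors to 69500 predicted gene models. How many plants went into a library is not stated in the labels.

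The shoot apex holds the shoot apical meristem, a dome of dividing stem cells, together with the youngest leaf primordia and young stem tissue, from which all later organs of the shoot are formed. In plants a large part of the transcriptome is expressed with a daily rhythm. The rhythm is set by the circadian clock, a network of transcription factors that repress or activate one another at different times of day, and by light, temperature and sugar supply, and genes of photosynthesis, starch metabolism and growth are among those known to follow it in leaves. RNA-seq of a whole apex measures the mix of all of these cells, so that fewer cells of a type and less RNA per cell cannot be told apart.

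Gene models are known in the files by their identifier alone. Of the 69500 identifiers, 0 occur in the gene table that RefSeq gives for tobacco, so that the changed models are described by their level, size of change, length, tissues and time course, and no function can be given for them. The shoot apex label could not be checked against marker genes for the same reason. For each direction of change 1 model was named for its size of change and 1 for its level. Tobacco is an allotetraploid and carries near-identical homeologous copies of many genes, between which reads were divided by estimation, so that the values of any single model are uncertain where such a copy exists.

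The 6 libraries held between 10608197 and 20145401 expected counts, with ZT0 at 10608197, 12773322 and 12632312 and ZT6 at 20145401, 16494827 and 13740375. Between 35671 and 38386 gene models had a TPM of at least 1 in a library, where TPM is a count divided by model length and scaled to the same sum in each library. Replicates of a time-point correlated with r between 0.927 and 0.977 in log2 CPM, the count scaled by library size. For a second description of each library, the mean inverse length of the models that received its counts was taken, which is high where counts lie on short models. It was 0.874, 0.797 and 0.979 per kb at ZT0 and 0.696, 0.882 and 0.704 per kb at ZT6, so that replicates 1 and 3 of ZT6 lay below all 3 ZT0 libraries and replicate 2 lay among them. Of the libraries used for comparison, shoot ZT6 replicate 1 stood furthest apart, with 4438627 counts, of which 36.6% fell on its 10 most abundant models. Shoot ZT18 replicate 2 also differed from its replicates, with 4125090 counts, of which 12.2% fell on its 10 most abundant models. The main results in shoot are given with and without shoot ZT6 replicate 1.

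Between dawn and ZT6, 708 gene models rose and 536 fell in shoot apex, out of 44594 that passed a filter on low counts (edgeR quasi-likelihood test over all 36 libraries, Benjamini-Hochberg adjusted p under 0.05). These are 1.59% and 1.2% of the models tested, and 2.79% changed in either direction. The median risen model was 2.80-fold higher at ZT6, and the median fallen model was 3.04-fold lower. Over all models tested, the median log2 fold change was -0.00, and 6762 models had an unadjusted p under 0.05. The p-values rest on a spread estimated within the 12 groups of all 36 libraries, whose members the study calls biological replicates. With the 6 shoot apex libraries alone, 203 models rose and 149 fell.

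The risen models had a median log2 fold change of 1.48, with quartiles of 1.08 and 2.21 and a range from 0.51 to 9.92. Of these, 575 (81.2%) rose by at least 1 on the log2 scale, 212 (29.9%) by at least 2, 82 (11.6%) by at least 3 and 19 by at least 5. The fallen models had a median of -1.60, with quartiles of -2.25 and -1.18 and a range from -8.47 to -0.59. Here 461 (86%) fell by at least 1 on the log2 scale, 183 (34.1%) by at least 2, 55 (10.3%) by at least 3 and 13 by at least 5. The sizes were thus alike in both directions. Of all models tested, 7296 (16.4%) had a fitted change of at least 1 in size, so that most changes of this size did not pass the test. The standard error of the log2 fold change had a median of 0.30 among risen models, 0.35 among fallen models and 0.42 among all. A total of 4 risen models had no count in any ZT0 library and 3 fallen models had none in any ZT6 library, and with these set to the bound given by 3 counts the medians were still 1.48 and -1.60.

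In TPM, the 3 ZT6 libraries lay above the 3 ZT0 libraries without overlap for 702 of the 708 risen models, and below them for 464 of the 536 fallen models. For comparison, 10.9% of all models tested had ZT6 wholly above ZT0 and 6% had it wholly below. The test itself selects for separated groups, so these counts describe the changed models. Both the counts of changed models and their split depended on the libraries and on the test, and fallen models outnumbered risen models in some settings. Without ZT0 replicate 1, 430 models rose and 274 fell, without ZT0 replicate 3, 403 rose and 435 fell, without ZT6 replicate 1, 414 rose and 227 fell, and without ZT6 replicate 3, 185 fell. DESeq2 called 971 risen and 1116 fallen models, so that the risen share of the changed models was 46.5% there against 56.9% in edgeR. Without 5 root and shoot libraries that the study lists with few reads mapped, 668 models rose and 729 fell. One of the 5, root ZT18 replicate 2, has 13332241 expected counts in its deposited file, so that its deposited depth was not low.

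**Figure D1:**
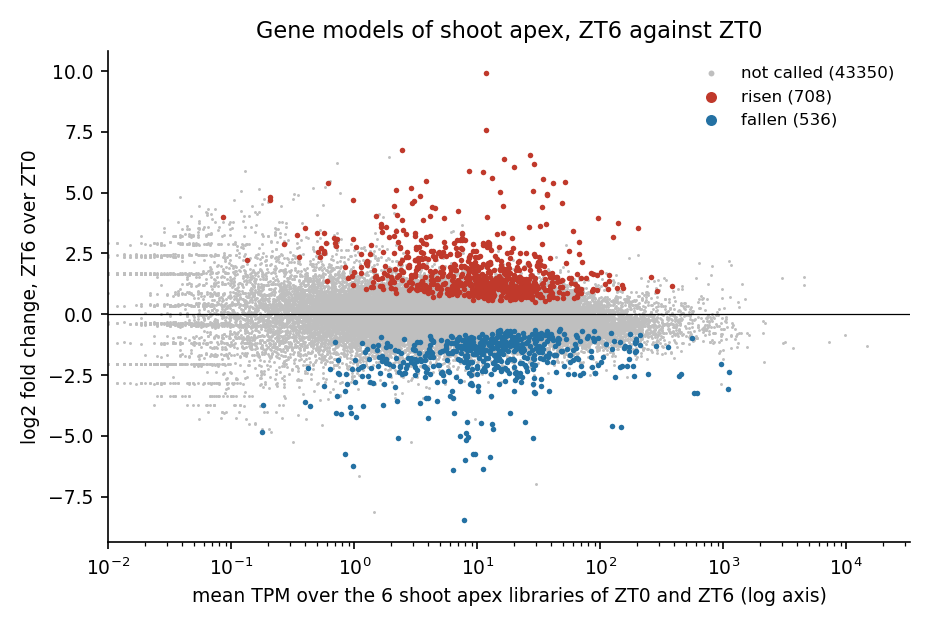
Fitted log2 fold change of each tested gene model, ZT6 against ZT0 in shoot apex, against its mean TPM over these 6 libraries (log axis, models under 0.01 not drawn), with grey points for models that did not pass the test and coloured points for the 708 risen and 536 fallen models. Changed models occurred over the whole range of levels, and 575 risen and 461 fallen models changed by at least 1 in size.

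The changed models were of middle to high level. Their mean TPM over the 12 shoot apex libraries had a median of 11.6 for risen and 11.7 for fallen models, against 7.69 for all models tested. When the tested models were divided by this level into 4 classes of equal size, at TPM of 2.33, 7.69 and 18.5, the risen models numbered 80, 180, 226 and 222 from the lowest to the highest class, or 0.718%, 1.61%, 2.03% and 1.99% of each class. The fallen models numbered 73, 124, 166 and 173, or 0.655%, 1.11%, 1.49% and 1.55%. Low models therefore supplied the fewest calls in both directions, where the counts are also the least precise.

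As a share of all transcripts, the risen models together took 0.63%, 0.679% and 0.491% of TPM in the 3 ZT0 libraries and 2.36%, 1.69% and 1.96% in the 3 ZT6 libraries. The fallen models took 3.29%, 3.25% and 2.39% at ZT0 and 1.04%, 1.03% and 0.982% at ZT6. The fallen models thus held the larger share at dawn and the risen models the larger share 6 h later. The models were chosen for their change in these same libraries, which fixes the direction in which each share moved. In either time-point the changed models together made up a few percent of the transcripts.

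Changes from near absence were a small part of the whole. A TPM of at least 1 in all 3 ZT6 libraries with less than 1 in all 3 ZT0 libraries was found for 173 models. Of these, 164 were among the 44594 tested and 70 were among the 708 risen models. The opposite was found for 99 models, of which 92 were tested and 32 were among the 536 fallen models. Most of these models were weakly expressed also when present, with a median TPM of 2.11 in the first group and 1.84 in the second, although the highest reached 57.3 and 24.7. The larger part of the changed models was therefore detected at both time-points and differed in level.

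Of the risen models, Nitab4.5_0004270g0010.1, with a length of 3581 bases, had the largest change among the models with a mean TPM of at least 5 in the higher group. Its TPM was 0, 0 and 0.04 in the ZT0 libraries and 30.9, 14.2 and 25.6 in the ZT6 libraries. The model was thus at the limit of detection at dawn and at a middle level in all 3 libraries of ZT6. In summed counts this was 2 against 3241, a ratio of 1158 after correction for library totals, with an exact 95% interval from 320 to 9569 that covers counting error only. The fitted log2 fold change was 9.92 with a standard error of 1.05 (edgeR adjusted p 1.83e-07), a value that depends on the prior count because so few counts were found at ZT0. It was still expressed at ZT12, at TPM of 23.4, 10.97 and 7.39, and had returned to 0.1, 0.03 and 0.93 at ZT18. In the shoot, the same model stood at 0.52, 0.53 and 0.47 at ZT0 and at 3.66, 27.1 and 55.5 at ZT6, where the lowest of the latter is the library that stood apart. In root it was already present at dawn, at 4.44, 14.7 and 8.25, against 31.8, 25.6 and 31.1 at ZT6, a log2 fold change of 1.67 that did not pass the test (edgeR adjusted p 0.617). The change in shoot apex exceeded that in root by 8.25 on the log2 scale (edgeR adjusted p 0.000144).

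Nitab4.5_0015741g0010.1 has a length of 690 bases. It had the highest level of the risen models without overlap in TPM and with a log2 fold change of at least 1. Its TPM was 154, 263 and 206 at ZT0 and 669, 407 and 592 at ZT6, or 207 ± 54.5 and 556 ± 134 (SD, n = 3). The libraries did not overlap, which was a condition of being named. The fitted log2 fold change was 1.14 with a standard error of 0.32. The adjusted p of 0.0463 in edgeR lay close to the threshold and did not hold in 16 of 20 alternative settings, over which it ranged from 0.0109 to 0.949, and in each of the 6 fits that left out 1 library the call was lost. The TPM was 745, 745 and 797 at ZT12 and 289, 346 and 328 at ZT18. In shoot the log2 fold change from ZT0 to ZT6 was 1.78 with a standard error of 0.32 (edgeR adjusted p 0.000848). In root, where the TPM at ZT0 was 157, 197 and 365, it was -0.39 (edgeR adjusted p 0.683).

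The fallen model with the largest change was Nitab4.5_0000351g0200.1, a short model of 258 bases. Its TPM was 29.5, 11.4 and 6.01 at ZT0 and 0 in all 3 libraries of ZT6. From 112 counts at ZT0 to 0 at ZT6, the model was at least 52.2-fold lower, with the floor set at 3 counts over the group. The fitted log2 fold change was -8.47 (standard error 1.16, edgeR adjusted p 2.10e-05), and it depends on the prior count. The model remained at 0 in all 3 libraries of ZT12 and was at 0, 0.4 and 0.41 at ZT18, so that at the end of the light period it had not come back to its dawn level. In shoot the model was at 32.4, 33.9 and 26.6 at ZT0 and at 0.95, 2.97 and 1.57 at ZT6, a log2 fold change of -3.32 (edgeR adjusted p 0.0130). In root at most 1 count was found in any library.

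Nitab4.5_0000722g0100.1, with a length of 1613 bases, ranked 15 by mean TPM at dawn among all models. It had the highest level of the fallen models without overlap in TPM and with a log2 fold change of at least 1 in size. Its TPM was 1987, 2377 and 1408 at ZT0 and 215, 246 and 331 at ZT6, or 1924 ± 488 and 264 ± 60.1 (SD, n = 3). Mean TPM was 7.28-fold lower, and the fitted log2 fold change was -3.09 with a standard error of 0.47 (edgeR adjusted p 0.000119). Where both ZT6 replicates 1 and 3 were left out, the log2 fold change was -2.95 with a standard error of 0.77 and the call was lost (edgeR adjusted p 0.0935). The TPM was 163, 167 and 89.7 at ZT12 and 354, 341 and 472 at ZT18. The higher values at ZT18 did not overlap those of ZT12, but the log2 difference of 1.51 did not pass the test (edgeR adjusted p 0.207). In shoot the ZT0 libraries were at 539, 834 and 2592 and the ZT6 libraries at 11.2, 81.6 and 218, with a log2 fold change of -3.30 (edgeR adjusted p 4.02e-05). In root the TPM was between 1.08 and 3.46 in every library.

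**Figure D2:**
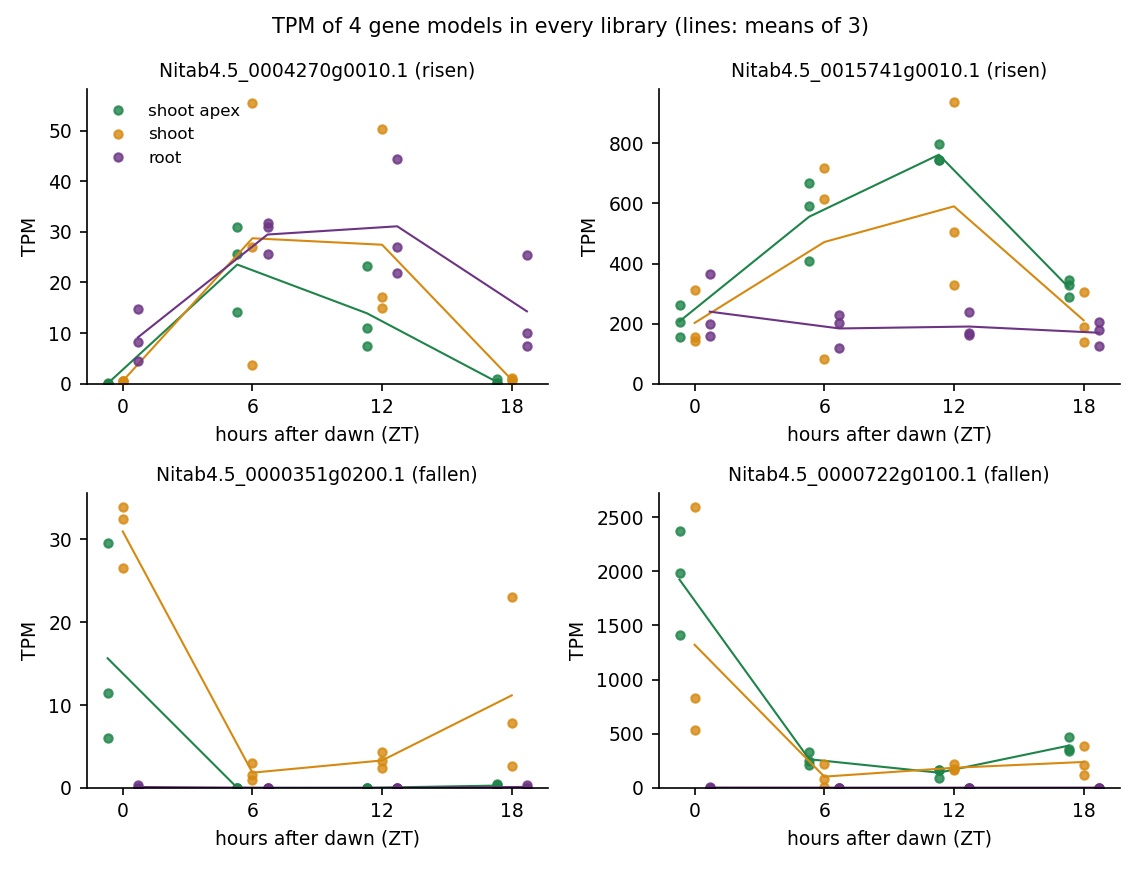
TPM of the 4 named gene models in each library of shoot apex, shoot and root at the 4 time-points, with 1 point per library, points of the tissues set slightly apart, linear axes from 0 and lines through the group means. In shoot apex, both risen models were higher at ZT6 than at ZT0 in every library and both fallen models were lower. This was a condition of being named.

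Shoot and root libraries do not enter the means compared in the apex, but they shared in the filter and in the estimate of the spread from which the models were called. Models called from the 6 shoot apex libraries alone, 203 risen and 149 fallen, were therefore also read in the other tissues, a reading added after the data had been seen. In shoot, ZT6 differed from ZT0 for 1708 models (3.83% of those tested), of which 1152 (2.58%) were higher and 556 (1.25%) were lower. Without shoot ZT6 replicate 1, 848 were higher and 302 lower. Of the 708 models risen in shoot apex, 469 (66.2%) were also called higher in shoot and 0 were called lower. Of the 536 fallen models, 222 (41.4%) were called lower in shoot and 0 higher. The median log2 fold change in shoot was 1.36 for the risen models and -1.08 for the fallen models, against -0.08 for all models tested. A fitted value above 0 was found for 697 risen models and a value below 0 for 529 fallen models. Without shoot ZT6 replicate 1, 426 of the risen models were higher and 163 of the fallen models were lower, with medians of 1.36 and -1.10. The models called from 6 libraries had medians in shoot of 2.21 for the 203 risen, of which 202 lay above 0, and of -2.02 for the 149 fallen, all below 0. On TPM without the TMM scaling the shoot comparison was shifted, with a median over all models of -0.69 by limma on log2(TPM + 1), where 92 models were called higher and 750 lower. There 57 risen models were called higher and 253 fallen models lower in shoot, with medians of 0.38 and -1.70. In shoot ZT6 replicate 1, the median log2(TPM + 1) of all models lay at -2.10 relative to the shoot mean.

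The difference between the tissues was tested directly in the same fit. The change from ZT0 to ZT6 differed between shoot apex and shoot for 5 models (0.0112% of those tested, edgeR adjusted p under 0.05), while 1869 had an unadjusted p under 0.05 and DESeq2 called 19. For 1 of the 5 models (0.00224%) the change in shoot apex was the larger, at 5.07 on the log2 scale against 2.63 in shoot. For the other 4 (0.00897%) the change in shoot apex was the smaller, with a median log2 fold change of 0.56 against 2.64 in shoot, where all 4 were called higher. Leaving out 1 library gave between 0 and 6 models, and without shoot ZT6 replicate 1 the number was 4. Hence, for nearly all changed models a difference from shoot was not detectable with 3 libraries per group, and a change confined to the shoot apex was not shown for them. Across the 1244 changed models the log2 fold changes in shoot apex and shoot correlated with a Pearson r of 0.912 and a Spearman rho of 0.913. Within the risen models alone the values were 0.732 and 0.682, and within the fallen models 0.744 and 0.672. Without shoot ZT6 replicate 1 the values over the 1244 models were 0.911 and 0.912. Over all models tested, with every shoot library, they were 0.380 and 0.479. The 1244 models were chosen as risen or fallen in shoot apex, so the pooled value holds the gap between these groups. All of these correlations are across gene models, which share the libraries and are not independent replicates.

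In root, the fitted morning change of the same models was small. Root ZT6 replicates 1 and 2 held 4787850 and 7447374 expected counts, and the study lists both with few reads mapped. Few calls in root therefore do not show that root was unchanged. ZT6 differed from ZT0 for 3 models (0.00673% of those tested), all higher, with 3542 at an unadjusted p under 0.05 and 57 called by DESeq2. A single risen model of the shoot apex was among the 3, and 0 of the fallen models were called. The median log2 fold change in root was 0.09 for the risen and -0.27 for the fallen models, against -0.07 for all models tested. Without the libraries listed with few reads mapped, which leaves a single root ZT6 library, these medians were 0.12, -0.28 and -0.06. A fitted value above 0 was found for 448 risen models (63.3%), against 44.1% of all models tested. A value below 0 was found for 396 fallen models (73.9%), against 55.1% of all. In shoot apex and root, the log2 fold changes of the 1244 changed models correlated with a Pearson r of 0.413 and a Spearman rho of 0.423. Over all models tested these were 0.306 and 0.460. Within the risen models they were 0.318 and 0.183, and within the fallen models 0.057 and 0.094. A TPM of at least 1 in all 3 replicates of at least 1 time-point was reached in root by 652 (92.1%) of the risen models and 465 (86.8%) of the fallen models, against 86.5% of all models tested.

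The change in shoot apex differed from that in root for 262 models (0.588% of those tested), being above it for 175 (0.392%) and below it for 87 (0.195%). Of the 708 risen models 166 (23.4%) were among the first, and of the 536 fallen models 78 (14.6%) were among the second. The change in shoot apex is part of this difference, so the direction of these overlaps was largely fixed in advance. The 175 models had a median log2 fold change of 1.93 in shoot apex and -0.16 in root, and 167 of them were expressed in root. The 87 models had medians of -2.36 and 0.13, and 76 were expressed in root. Both groups were picked by the difference itself, which sets their medians in the 2 tissues apart. The number was 67 without the 5 libraries listed with few reads mapped, among which are root ZT6 replicates 1 and 2. For the other changed models a difference from root was not detected, and this does not show that they changed alike in both tissues.

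**Figure D3:**
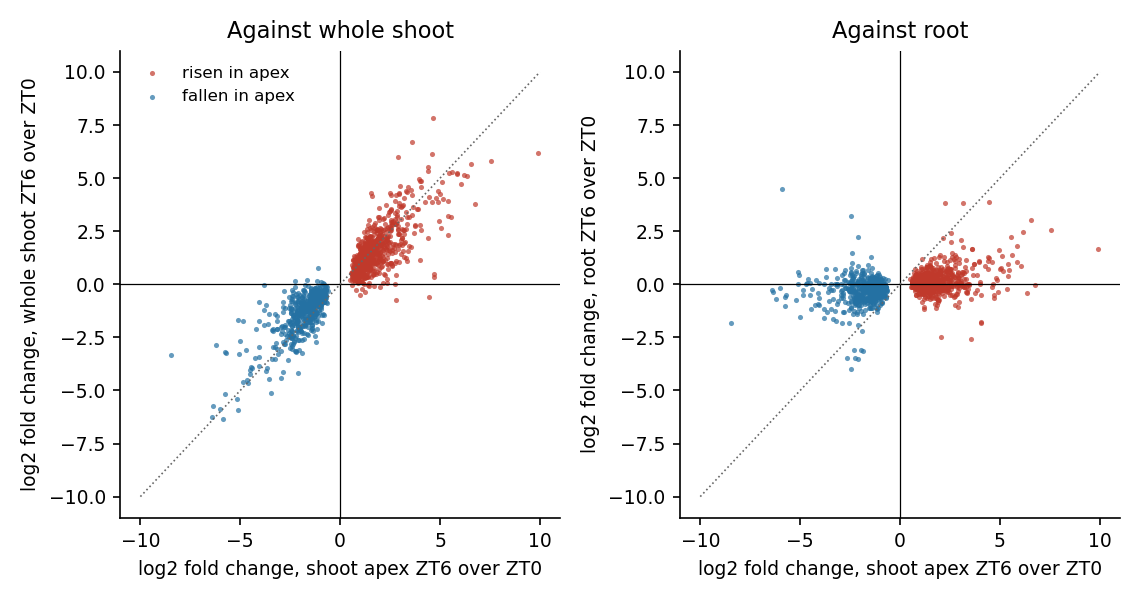
Log2 fold change of the 1244 changed gene models, ZT6 against ZT0, in shoot apex on the x axis and in shoot (left) or root (right) on the y axis, with 1 point per model and a dotted line where both are equal. The points follow a rising line in shoot, with medians of 1.36 and -1.08 and a Pearson r of 0.912. In root they lie in a flatter band, with medians of 0.09 and -0.27 and a Pearson r of 0.413.

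Most of the changed models were expressed in every tissue. A model was called expressed in a tissue from a TPM of at least 1 in all 3 replicates of at least 1 time-point, as in the methods of the study. By this rule 632 risen models (89.3%) and 444 fallen models (82.8%) were expressed in root, shoot and shoot apex, against 73% of all models tested. Models expressed in shoot and shoot apex alone supplied 40 risen and 63 fallen models, which are 1.72% and 2.71% of the 2322 models of this class. Of 868 models expressed in shoot apex alone, 10 (1.15%) rose and 1 (0.115%) fell. The models found only in root, 3164 in number, held 4 risen and 2 fallen models. Expression in a tissue was read from the same libraries as the test, and a model at a TPM of at least 1 has more counts to be tested with.

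The later course of the models was followed through ZT12 and ZT18. The median over risen models of the mean TPM in shoot apex was 4.29 at ZT0, 16.2 at ZT6, 13.9 at ZT12 and then 8.55 at ZT18. Over fallen models it was 18.2, 6.86, 7.29 and 10.5. Over all models tested it stayed between 6.51 and 7.95. By these medians, the levels of both groups at ZT18, the end of the light period, lay between those of dawn and those of the day. For risen models this did not hold in every library. Relative to the tissue mean, in median log2(TPM + 1), they lay at -0.48, -0.54 and 0.12 at ZT18. Replicate 3 thus lay within the range of the ZT12 libraries, from 0.001 to 0.59. Its mean inverse length was 0.675 per kb, against 0.932 and 0.934 in replicates 1 and 2. In shoot the medians of mean TPM were 7.27, 15.003, 16.9 and 7.50 for the risen models, in the same order of time-points. For the fallen models they were 22.3, 7.37, 14.0 and 13.2. Without replicate 1 the ZT6 medians in shoot were 21.6 and 10.6. At ZT18 in shoot, replicate 2 lay low, at -0.87 for risen and -1.09 for fallen models in log2(TPM + 1) relative to the shoot mean. The other replicates lay at -0.32 and -0.38 for risen models and at 0.21 and -0.002 for fallen models. In root the medians of mean TPM stayed between 10.8 and 12.5 for risen models and between 7.11 and 7.96 for fallen models.

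The means of ZT12 and ZT18 share no library with those of ZT0 and ZT6, although all entered the same estimate of the spread. Between ZT12 and ZT18, 190 models changed in shoot apex (0.426% of those tested), of which 47 (0.105%) rose and 143 (0.321%) fell. Of the 708 models that had risen by ZT6, 80 (11.3%) fell between ZT12 and ZT18 and 0 rose, with a median log2 fold change of -0.59. Of the 536 models that had fallen by ZT6, 33 (6.16%) rose and 0 fell, with a median of 0.46. The median over all models was 0.00. A value below 0 was found for 681 of the risen models and a value above 0 for 456 of the fallen models, so that most models moved back towards dawn, although few passed the test singly. For the 203 and 149 models called from 6 libraries the medians were -1.03 and 0.80. With the 12 shoot apex libraries alone, 102 models changed, of which 38 had risen by ZT6 and now fell and 15 had fallen by ZT6 and now rose.

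**Figure D4:**
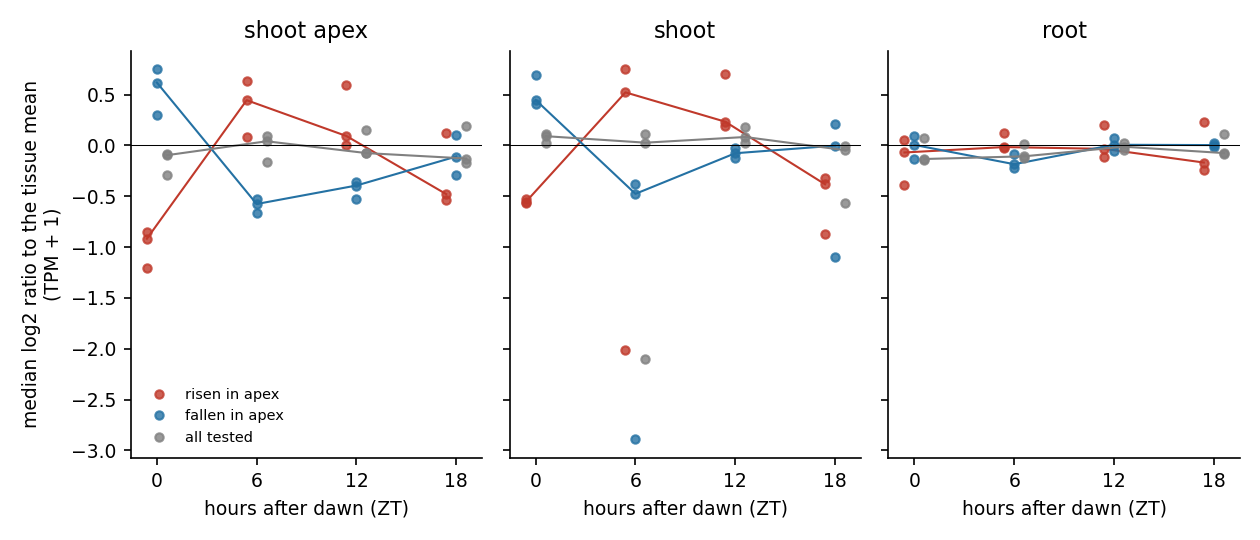
Median over the 708 risen, the 536 fallen and all tested gene models of log2(TPM + 1) relative to the mean of the model in the tissue, at the 4 time-points in shoot apex, shoot and root, with 1 point per library and lines through the median of 3 libraries. The shoot library far below the others at ZT6 is replicate 1, and the shoot library below the others at ZT18 is replicate 2. In shoot apex, the risen models were lowest at ZT0 and the fallen models were highest at ZT0.

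By mean TPM, 453 of the risen models (64%) were highest at ZT6 and 251 (35.5%) at ZT12, against 35.8% and 25.8% of all models tested, and 3 were highest at ZT18. Of the fallen models, 452 (84.3%) were highest at ZT0 and 64 (11.9%) at ZT18, against 16% and 21.1% of all models. The choice of the models in part fixes these shares, since a risen model cannot easily be highest at ZT0. The shoot was used to examine them in other libraries, by the median of 3 replicates. Of the 453 models highest at ZT6 in shoot apex, 354 (78.1%) were highest at ZT6 in shoot and 77 (17%) at ZT12. Of the 251 models highest at ZT12 in shoot apex, 159 (63.3%) were highest at ZT12 in shoot and 83 (33.1%) at ZT6. Among all models tested, the shares were 27.9% of those highest at ZT6 and 46.3% of those highest at ZT12. Of the 452 fallen models highest at ZT0, 337 (74.6%) were highest at ZT0 in shoot as well, against 55.8% among all models with their highest level at ZT0 in shoot apex. Of the 64 fallen models highest at ZT18 in shoot apex, 22 (34.4%) were highest at ZT18 in shoot and 26 (40.6%) at ZT12, against 27.9% and 27.3% among all models highest at ZT18, so that this group was spread over time-points in shoot. In root, 217 (47.9%) of the 453 models were highest at ZT6, against 52.8% of all models highest at ZT6 in shoot apex.

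Model length moved with the comparison. The risen models had a median length of 1515.5 bases and the fallen models of 1066 bases, against 1152 bases for all models tested. In 4 classes of equal size by length, divided at 760, 1152 and 1710 bases, 58, 127, 232 and 291 models rose from the shortest to the longest class, or 0.52%, 1.14%, 2.08% and 2.61%. In the same order 130, 170, 193 and 43 models fell, or 1.17%, 1.52%, 1.73% and 0.386%. The median log2 fold change over all models of a class was -0.35, -0.23, 0.01 and 0.42. The direction of a change was thus related to length in models of all kinds, in libraries whose counts also differed in the length of the models they fell on. The counts were taken again in 3 fits, of which the second and the third were chosen after the data had been seen. With the mean inverse length of each library as a covariate in the fit of 36 libraries, 678 models rose and 553 fell, and the class medians were -0.25, -0.19, 0.00 and 0.33. With the same covariate in the 12 shoot apex libraries alone, where 39368 models were tested, the class medians were -0.00, -0.01, -0.01 and 0.02. The covariate is itself made from model length and can take up such a trend by construction. In that fit 1234 models rose and 1331 fell, among them 600 of the 708 and 429 of the 536. Without ZT6 replicates 1 and 3, which leaves a single ZT6 library that is assumed to vary like the other groups, the medians were -0.06, -0.04, -0.02 and -0.03, and 234 models rose and 57 fell, among them 231 of the 708 and 51 of the 536. In these last 2 fits the median of the risen models was 1.34 and 1.37 and that of the fallen models -1.45 and -1.39. The part of model length in the calls cannot be read from them alone, since the models were chosen in the first fit. In shoot the class medians over all models were -0.23, -0.14, -0.06 and 0.06, a smaller trend in the same direction. Without shoot ZT6 replicate 1 they were -0.21, -0.11, -0.06 and 0.05. The risen models had medians in shoot of 2.18, 1.59, 1.31 and 1.19 from the shortest to the longest class. The fallen models had -1.12, -1.05, -1.08 and -1.17 in the same order. Without shoot ZT6 replicate 1 the risen models had 2.27, 1.63, 1.32 and 1.23 and the fallen models -1.15, -1.001, -1.13 and -1.11.

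**Figure D5:**
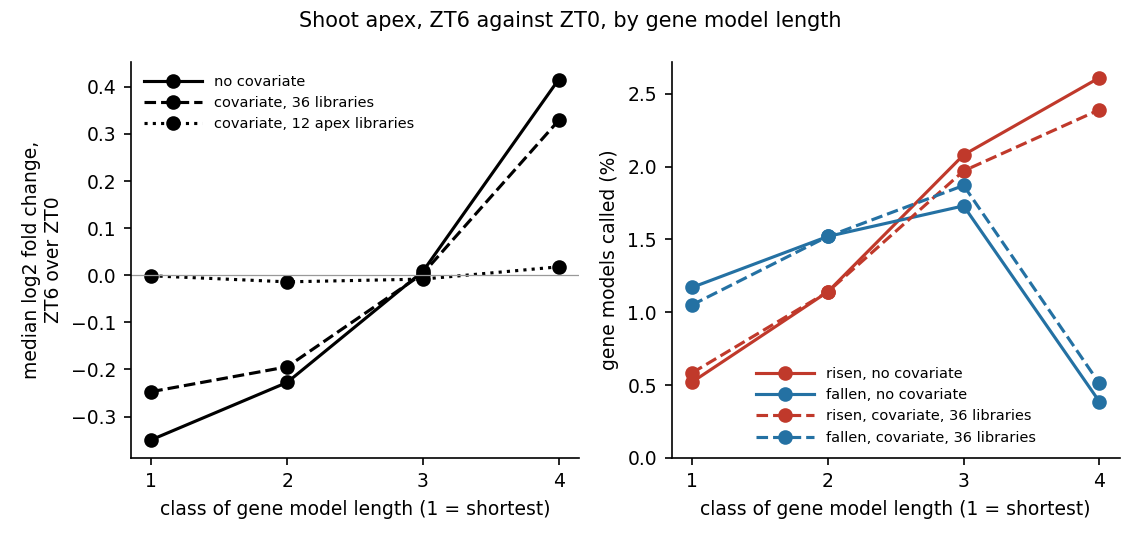
Median log2 fold change of all tested gene models (left) and percent of tested models called risen or fallen (right) in each of 4 classes of model length, ZT6 against ZT0 in shoot apex, with solid lines for the fit without a covariate, dashed lines for the fit of 36 libraries with the length covariate and, on the left, a dotted line for the covariate in the 12 shoot apex libraries. Without a covariate the medians went from -0.35 in the shortest to 0.42 in the longest class. With the covariate in the shoot apex libraries, where 39368 models were tested, they were within 0.02 of 0. This covariate is itself made from model length and can take up such a trend by construction.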

How the data were processed

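RNA-seq libraries of root, shoot and shoot apex were grouped by the tissue and time-point in their labels, with 3 replicates in each of 12 groups. The submitters' processing notes name CASAVA 1.9.4, Bowtie 1.1.0 and RSEM 1.2.7. After trimming, the authors assigned reads to the gene models of assembly Nitab4.5, and the deposited values are expected counts, estimated by RSEM and not normalised, and TPM, which is scaled by model length within a library. Whether counting used strand is not given in the sources used here. The table of the whole series repeats the expected counts and was not used here. The effective length in the deposited files equals the full length of each model, so that TPM holds no correction for fragment length.

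Expected counts were rounded to whole numbers, filtered by filterByExpr (minimum count 10, minimum total 15), normalised by TMM and fitted with edgeR 4.0.16 (glmQLFit, glmQLFTest) over 36 libraries and 12 groups without a replicate block. Adjusted p-values are Benjamini-Hochberg values over 44594 models, two-sided, with a threshold of 0.05. Standard errors were obtained from the log2 fold change and its F value. Differences between tissues were tested as contrasts of contrasts. No test between groups is named in the methods of the study. Classes of level and length, tissues of expression and time courses are descriptions without a test. Gene models were named among changed models whose 6 libraries did not overlap in TPM: in each direction the largest log2 fold change with a mean TPM of at least 5 in the higher group, and the highest mean TPM with a log2 fold change of at least 1 in size. The members, groups and rules were chosen with earlier results of these data known.

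Alternatives used DESeq2 1.42.0, limma 3.58.1 on log2(TPM + 1) and log2(TPM + 0.1), RLE factors, other filters, a replicate block, a length covariate, fewer libraries and each replicate left out, in R 4.3.3, with tables made in Python 3.11.15. The depth was between 10608197 and 20145401 expected counts in the 6 libraries compared, and intervals from counts cover counting error only. A total of 0 library pairs held identical counts.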

Additional observations from a re-analysis of the deposited data

Results flagged for a closer look

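The change from ZT0 to ZT6 differed between tissues by a test of the difference itself for 3 items. Between shoot apex and shoot, 5 gene models differed (edgeR adjusted p under 0.05), of which 4 had the larger rise in shoot. In the comparison with root it was 262 gene models, of which 175 lay higher and 87 lower in shoot apex. For Nitab4.5_0004270g0010.1 the log2 fold change in shoot apex exceeded that in root by 8.25 (edgeR adjusted p 0.000144), with TPM at ZT0 of 0, 0 and 0.04 in shoot apex and of 4.44, 14.7 and 8.25 in root.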

How the results depend on the processing

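Every one of the 708 risen and 536 fallen models that entered an alternative fit kept its sign in shoot apex. These fits reuse the libraries in which the models were chosen, so the kept signs were largely fixed in advance. The direction with more calls did not hold. Fallen models outnumbered risen models by DESeq2 (971 and 1116) and without 5 libraries with few reads mapped (668 and 729). They did so too without ZT0 replicate 3 (403 and 435) and with the length covariate in the 12 shoot apex libraries. For the 708 risen and 536 fallen models, the counts that moved by over 1.5 times were 462 risen with the 12 shoot apex libraries alone, 203 and 149 with the 6 libraries compared, 142 and 78 by limma on log2(TPM + 1), 100 and 37 by limma on log2(TPM + 0.1), 1116 fallen by DESeq2, 234 and 57 without ZT6 replicates 1 and 3, and 1234 and 1331 with the length covariate in the 12 shoot apex libraries. The risen share of the changed models was 56.9%, 46.5% by DESeq2 and 73% by limma with 0.1, where the median of all models stood at 0.22. Leaving out 1 library gave 403 to 735 risen and 185 to 596 fallen models.

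For the 5 models that differed from shoot the count was 19 by DESeq2, 3 with the length covariate and 0 by both forms of limma, with 0 to 6 when 1 library was left out. For the 262 that differed from root it was 402 by DESeq2, 67 without 5 libraries with few reads mapped, 35 and 22 by limma, and 167 to 238 with 1 library left out. Shoot gave 842 and 590 by limma, of which 92 and 65 were higher and 750 and 525 lower against 1152 and 556 by edgeR, with medians of all models at -0.69 and -0.99, and 43 risen models called higher with 0.1. The median difference from shoot of the fallen models was -0.47 and turned to 0.59 and 0.79 by limma, where that of all models was 0.87 and 1.22. Shoot gave 1150 to 1706 with 1 library left out. Root gave 57 by DESeq2, 31 by limma on log2(TPM + 1) and 0 to 3 with 1 library left out. ZT18 against ZT12 gave 365 by DESeq2, 102 with the 12 shoot apex libraries, 57 and 47 by limma and 93 to 207 with 1 library left out. The cause of these moves was not tested.

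Replicate numbers did not pair the shoot apex samples, with correlations of the deviations of same-numbered samples of 0.027, -0.689 and -0.156. With the replicate number as a block, 533 models rose and 382 fell, of which 523 and 371 were among the 708 and the 536, and the other counts were 1208 in shoot, 2 in root, 145 for ZT18 against ZT12, 2 against shoot and 182 against root. Of the named models, Nitab4.5_0004270g0010.1 and Nitab4.5_0000351g0200.1 passed the threshold in all 20 alternatives, Nitab4.5_0000722g0100.1 in 19 and Nitab4.5_0015741g0010.1 in 4.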

Other observations

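Changed models showed little grouping along the assembly. By the scaffold and gene numbers in the identifiers, 26168 pairs of neighbouring models were tested, of which 8 pairs had both models risen, 4 had both fallen and 7 had 1 of each. Of the neighbours of risen models 1.85% had risen, against 1.65% of all models in such pairs, and of the neighbours of fallen models 1.23% had fallen, against 1.24%. No run of neighbours in 1 direction was longer than 2 models.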
